A study of Homo sapiens with 6 samples.

Results

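The RNA recovered with an antibody against NAT10 from the colorectal cancer cell line SW480 was set against that recovered from DLD-1. Genes were taken as members where the FPKM (fragments scaled to transcript length and library size) was at least 1 in either RNA immunoprecipitation (RIP) library, which gave 15143 of 58302 genes. For each member, the RIP difference was log2((SW480 FPKM + 1)/(DLD-1 FPKM + 1)), so that a positive value means more in the RIP library labelled SW480. The Input difference, formed in the same way from the Input libraries, was placed beside it. Around the 1 FPKM limit, 2377 members had a higher RIP value under 2 FPKM, and 2478 genes outside had a higher RIP value of at least 0.5 FPKM.

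Both lines are untreated human colorectal cancer lines of epithelial origin. They are wild type only in the sense of not engineered, since the paper describes both as p53 mutant. The study sought the transcripts that NAT10 binds in them. It holds 6 libraries: Input (total RNA), NAT10 RIP and ac4C RIP (acRIP) from each line. Each group is 1 library, so each value below compares libraries and has no replicate check, and no p-value was computed. Intervals are 95% counting intervals from whole reads solved from the FPKM steps, and they cover counting error only. More of a transcript in the cells and more NAT10 bound per transcript cannot be told apart from the RIP difference alone. Nor can RNA carried over without NAT10, since the 6 libraries hold no pulldown with a control antibody.

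NAT10 is an acetyltransferase that writes N4-acetylcytidine (ac4C) on ribosomal, transfer and messenger RNA. In a RIP, an antibody pulls the protein down from a cell lysate together with its RNA, which is then sequenced, and the Input is RNA from the same kind of cells without that step. SW480 is known as a vimentin-expressing line with part of a mesenchymal phenotype, while DLD-1 is known to grow as cohesive epithelial colonies.

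The libraries do not pair by label. On log2(FPKM + 1) over the 11931 protein-coding members, RIP SW480 had a Pearson correlation of 0.907 with the Input carrying the DLD-1 label and of 0.775 with that of its own label. RIP DLD-1 had 0.922 with the SW480 Input and 0.744 with its own. A second pair of Input columns, in the table deposited with the acRIP data, gave the same order (0.903 against 0.771, and 0.917 against 0.750). The relative depths were 1 and 0.850 for RIP SW480 and RIP DLD-1 and 0.493 and 0.456 for the Inputs, and solved reads summed to 25314288, 20823508, 11258882 and 10701833. All groups are kept here as labelled, and why the RIP and Input labels cross was not tested. Of the epithelial markers, EPCAM, KRT8, KRT18, KRT19 and CDH1 ranged from 89.5 to 624 FPKM in RIP SW480 and from 180.4 to 1146 FPKM in RIP DLD-1. The colon markers were lower: CDX2 was 4.31 and 28.3 FPKM, CDH17 2.54 and 61.7 FPKM, and VIL1 1.24 and 0.687 FPKM. Of 19 markers of blood, endothelial, stromal, muscle and liver cells, 17 stayed under 1 FPKM in both RIP libraries, and ACTA2 (16.5 and 4.38 FPKM) and DES (1.64 and 0 FPKM), of muscle, did not.

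The RIP difference covers the microRNA-200 family, which holds cells in an epithelial state by acting on the mRNAs of ZEB1 and ZEB2, and it is shown here because its loci and ZEB1 lay on opposite sides. The mature sequences from RefSeq (GRCh38.p14), with the seed (bases 2 to 8) in capitals, fall into 2 groups. MIR200B and MIR429 lie on chromosome 1 (plus strand, 1167160 to 1167181 and 1169055 to 1169076) and MIR200C on chromosome 12 (plus strand, 6963742 to 6963764), and these 3 share a seed.
hsa-miR-200b-3p: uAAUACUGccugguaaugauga
hsa-miR-200c-3p: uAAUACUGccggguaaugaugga
hsa-miR-429: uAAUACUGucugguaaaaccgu
The other seed is shared by the 3p arms from MIR200A (chromosome 1, plus strand, 1167916 to 1167937) and MIR141 (chromosome 12, plus strand, 6964155 to 6964176).
hsa-miR-200a-3p: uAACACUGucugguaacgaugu
hsa-miR-141-3p: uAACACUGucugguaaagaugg

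All 5 loci were at 0 FPKM in RIP SW480. In RIP DLD-1 they stood at 14.2 (MIR200B), 11.1 (MIR200C), 10.5 (MIR429), 4.41 (MIR200A) and 4.18 FPKM (MIR141), and so all 5 were lower in RIP SW480. This was common for the class: of 202 microRNA loci among the members, 98 (48.5%) were at least 2-fold lower and 75 were at 0 FPKM in RIP SW480. In the other direction, 64 (31.7%) were at least 2-fold higher and 58 were at 0 FPKM in RIP DLD-1. Few reads lie behind the values of the 5 loci in RIP DLD-1: 34 for MIR200B, 10 for MIR200A and 5 for MIR141 as the smallest whole numbers, and none could be solved for the other 2. The long-RNA kit counts fragments over the hairpin locus, so the values describe precursor or host transcripts, not the mature microRNA. The host transcript MIR200CHG had 2.99 FPKM (31 reads) in RIP SW480 and 11 FPKM (97 reads) in RIP DLD-1, a value 3.68-fold lower in SW480 (2.43 to 5.71). ZEB1, a repressor of epithelial genes, had 5.27 and 0.108 FPKM (978 and 17 reads) and was 48.9-fold higher in RIP SW480 (30.4 to 84.3). In the Inputs, ZEB1 stood at 0.0764 FPKM with the SW480 label and 5.13 FPKM with the DLD-1 label. MIR200A had 14.4 and 0 FPKM there, MIR141 4.32 (3 reads) and 0 FPKM, and MIR200B 10.1 and 8.58 FPKM, while MIR200C and MIR429 were listed at 0 in both. In the Inputs of the acRIP table, MIR200A had 18.2 and 0 FPKM, but MIR141 and MIR200B were at 0 in both. MIR200CHG had 3.13 and 0 FPKM in the first Input pair and was at 0 in both Inputs of the acRIP table.

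Further, 2179 members (14.4%) were at least 2-fold higher in RIP SW480 and 1454 (9.60%) at least 2-fold lower. The median RIP difference was 0.08, with quartiles of -0.40 and 0.59. Of the 11931 protein-coding members, 1585 (13.3%) were higher and 842 (7.06%) lower, and of these 199 and 64 differed by at least 8-fold. The counts depended on scaling, with 1395 and 999 when differences were centred on the protein-coding median and 1737 and 735 when libraries had equal protein-coding sums. With a pseudocount of 5 FPKM they fell to 621 and 367. The 3212 non-coding members split more evenly, with 594 (18.5%) higher and 612 (19.1%) lower. Calls were more often higher at low levels: among protein-coding members of 1 to 2 FPKM, 22.0% were higher and 5.78% lower, against 9.49% and 12.2% of those from 50 FPKM up. In all, 304 members were at 0 FPKM in RIP SW480 and 453 in RIP DLD-1.

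The RIP difference ran opposite to the Input difference of the same labels. Across the protein-coding members, Pearson's r was -0.89 and Spearman's rho -0.82, and across all 15143 members they were -0.76 and -0.71. These are correlations across genes, which are not independent replicates, and no library enters both differences. The 2 differences had opposite signs in 9542 of 11931 protein-coding members (79.98%). In the Input, 965 of these members (8.09%) were at least 2-fold higher with the SW480 label and 1689 (14.2%) at least 2-fold lower. Of the 1585 higher in RIP, 1223 were lower in Input and 0 higher. Of the 842 lower in RIP, 608 were higher in Input and 0 lower. So no protein-coding member passed 2-fold in the same direction in RIP and Input. The relation was closer for abundant genes, with r from -0.73 at 1 to 2 FPKM to -0.95 from 50 FPKM up. With the Inputs of the acRIP table r was -0.84.

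**Figure D1:**
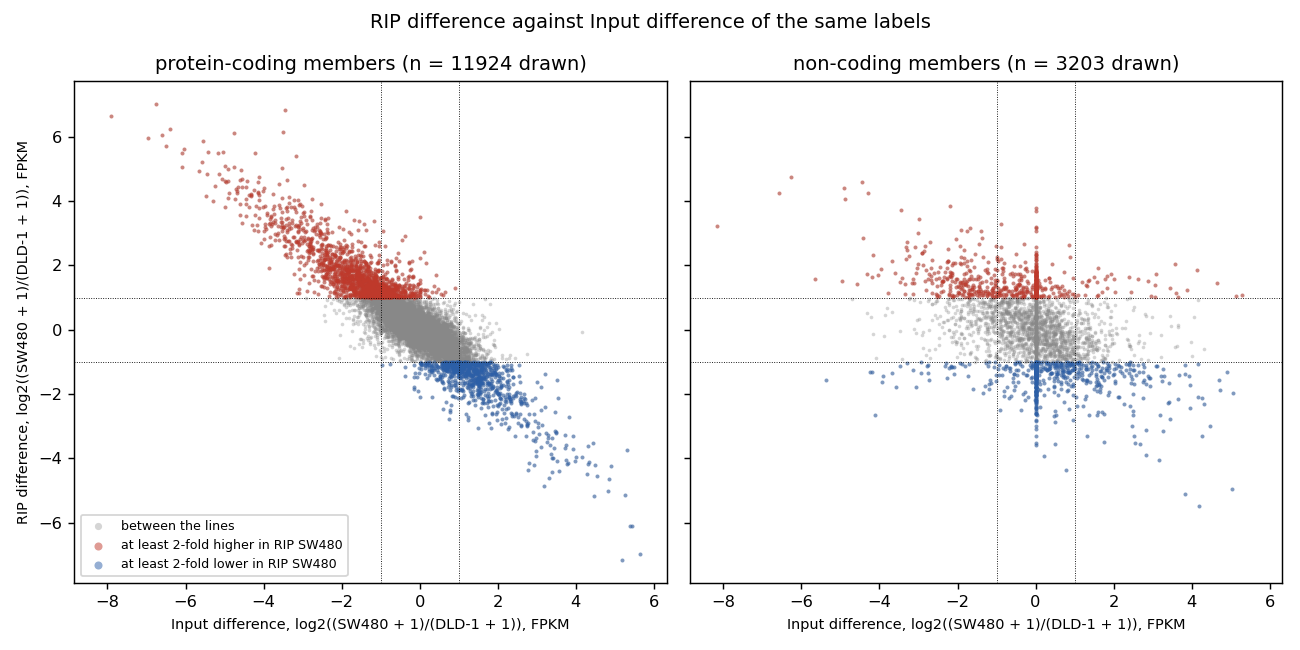
RIP difference (vertical axis) against Input difference (horizontal axis) of each member, both as log2((SW480 + 1)/(DLD-1 + 1)) of FPKM, for protein-coding genes (left) and non-coding genes (right), with dotted lines at 2-fold. Protein-coding genes fall on a descending diagonal with no called gene in the matching corners, while many non-coding genes lie at an Input difference of 0.

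Next, the non-coding members were described by class, since their RIP difference followed the Input less closely (r = -0.41, n = 3212). Among 133 small nucleolar RNAs, which guide the modification of ribosomal RNA, 71 were at least 2-fold lower in RIP SW480 and 12 higher. The same held for 137 genes annotated as small nuclear RNA (71 lower, 27 higher), which include pseudogene entries such as RNU6-341P. It also held for 115 miscellaneous small RNAs (58 lower, 22 higher) and 202 microRNA loci (98 lower, 64 higher). The median RIP differences of these classes were -1.11, -1.03, -1.01 and -0.91, while their median Input differences lay between 0 and 0.05. Many of these RNAs had no Input value to compare: 28 small nucleolar, 56 small nuclear and 61 miscellaneous small RNAs were at 0 in both Inputs. The same was true of 123 of the 202 microRNA loci. Depth was low for these classes: the median solved count was 8 and 13 reads for small nucleolar RNAs in RIP SW480 and RIP DLD-1, and 3 and 4 reads for microRNA loci. Long intergenic RNAs leaned the other way, with 149 of 609 higher, 82 lower and a median of 0.32, and 154 of 755 antisense RNAs were higher and 86 lower. Whether the counting used strand is not stated, so antisense RNAs cannot be told apart from their sense partners.

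**Figure D2:**
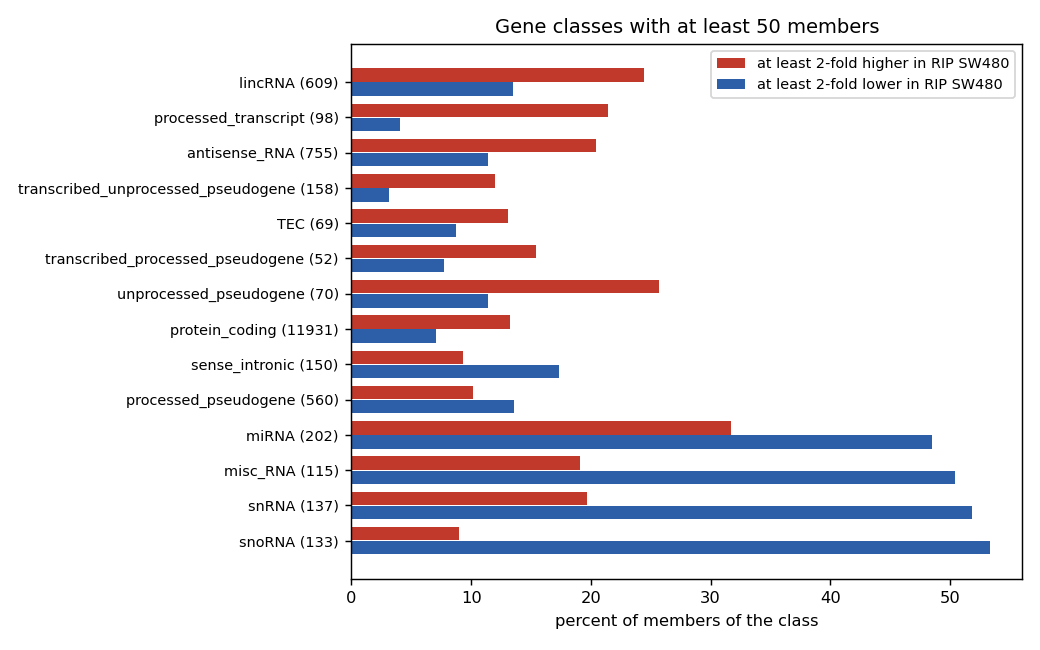
Percent of members of each gene class (class names as in the annotation, number of members in brackets) that were at least 2-fold higher (red) or lower (blue) in RIP SW480 than in RIP DLD-1. The 4 classes of short RNA have the longest blue bars, from 48.5% to 53.4%, against 7.06% for protein-coding genes.

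Among the short RNAs with more reads, several lay on the lower side, while MT-TE, a mitochondrial transfer RNA, lay on the higher. SNORD3A, the U3 RNA of pre-ribosomal RNA processing, had 113 FPKM in RIP SW480 and 408 FPKM in RIP DLD-1, 3.60-fold lower (3.43 to 3.77), beside 1178 and 1132 FPKM in the Inputs. RNU4-2, a U4 spliceosomal RNA, had 251 and 794 FPKM, 3.16-fold lower (2.94 to 3.40), beside 3612 and 3129.8 FPKM. For both, the Inputs stood closer together than the RIP libraries. SNORD3B-1 and SNORD3B-2, close copies of U3 whose reads may be split with SNORD3A, had 3.38 and 42.2 FPKM and 6.06 and 69.5 FPKM in RIP SW480 and RIP DLD-1. Their Inputs also differed, with 39.9 and 15.3 FPKM for SNORD3B-1 and 34.1 and 5.15 FPKM for SNORD3B-2. In the Inputs of the acRIP table, SNORD3B-1 had 44.5 and 271 FPKM, which is the opposite direction, and SNORD3B-2 had 53.9 and 35.4 FPKM. RN7SL2, the RNA of the signal recognition particle, was the most abundant RNA in all 4 libraries, with 31871 and 73102 FPKM in the RIP libraries and 108171 and 99869 FPKM in the Inputs. In the Inputs of the acRIP table RN7SL2 had 99171 and 25945 FPKM, so that its closeness holds for the first pair only. It made up 7.91% and 15.5% of the RIP FPKM sums, and FPKM values of all other RNAs share the remainder.

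SNORD3A and RN7SL2 belong to the 10 members with an Input difference nearest 0 among 357 that passed 2-fold in RIP and had at least 10 FPKM in all 4 libraries. All 10 were lower in RIP SW480, as were 206 of the 357, while 151 were higher. They were SNORD3A, SCARNA5, RNU5E-1, RNU4-2, RN7SL2, the processed pseudogenes RPS2P46 and TMSB4XP8, and 3 protein-coding genes. COX7C, a small subunit of cytochrome c oxidase, had 57.5 and 119 FPKM in RIP SW480 and RIP DLD-1 beside 146 and 143 FPKM in the Inputs, and was 2.08-fold lower (1.98 to 2.18). The Inputs of the acRIP table had 303 and 157 FPKM for COX7C, which are not close. ETHE1, a mitochondrial sulfur dioxygenase, had 40.9 and 85.0 FPKM beside 14.0 and 12.3 FPKM, and TSPAN15, a tetraspanin, 14.4 and 30.7 FPKM beside 19.5 and 16.8 FPKM.

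The protein-coding genes highest in RIP SW480 were led by DKK4, a secreted Wnt antagonist. It had 163 FPKM (4327 reads) in RIP SW480 and 0.266 FPKM (6 reads) in RIP DLD-1, 613-fold higher (281 to 1672), beside 0 and 107 FPKM in the Inputs. AKR1B10, an aldo-keto reductase, had 338 and 2.37 FPKM and was 142-fold higher (116 to 176), beside 0.344 and 321 FPKM. The low library held 6 reads for DKK4 and 95 for AKR1B10.

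VIM, the intermediate filament protein of mesenchymal cells, had 128 FPKM (10087 reads) in RIP SW480 and 0.804 FPKM (54 reads) in RIP DLD-1, 159-fold higher (122 to 212). Its Inputs stood at 0.0770 FPKM with the SW480 label and 11.1 FPKM with the DLD-1 label. Thus, the marker that SW480 is known for was high in the RIP library of that label and in the Input of the other. HIST1H3C, a histone H3 gene, had 114 FPKM (1386 reads) in RIP SW480 and 0 in RIP DLD-1, at least 393-fold higher with the floor of 3 reads. Also among the 15 highest were SNCG, MSN, TGM2, FABP3, KRT5, AKR1C1, DBN1, KRT23, PLIN2 and FLNC. Their values ran from 50.8 FPKM (KRT23) to 137 FPKM (SNCG) in RIP SW480 and from 0.120 FPKM (KRT23) to 1.04 FPKM (FABP3) in RIP DLD-1. MSN (moesin), DBN1 (drebrin) and FLNC (filamin C) bind or link actin, TGM2 crosslinks proteins, KRT5 is a basal keratin, and PLIN2 coats lipid droplets.

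Among the genes lowest in RIP SW480, AGR2, a protein disulfide isomerase of mucus-secreting cells, led with 0.0949 FPKM (5 reads) in RIP SW480 and 155 FPKM (6942 reads) in RIP DLD-1. It was 1633-fold lower (699 to 5031), and its Inputs stood at 59.5 and 0.667 FPKM. RAB25, an epithelial GTPase of membrane recycling, had 0.122 FPKM (2 reads) and 139 FPKM (1943 reads), beside 55.5 and 0.133 FPKM, and the ratio of 1143 has an interval of 316 to 9443. CD24, a surface glycoprotein, had 0.201 and 81.5 FPKM, 404-fold lower (245 to 723), beside 51.1 and 0.206 FPKM. Low values again rest on few reads, which the wide intervals show.

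EHF, an epithelial ETS transcription factor, had 1.45 and 86.2 FPKM, 59.6-fold lower (50.3 to 71.2). KRT20, a keratin of differentiated intestinal cells, had 0 and 23.9 FPKM (0 and 1045 reads), at least 409.7-fold lower. PRSS2, a trypsinogen, had 0 and 67.6 FPKM and shares sequence with other trypsinogen genes. Its read count is not settled, since 17 is the smallest whole number that fits and any multiple would fit as well. TMEM200A was at 0 and 20.0 FPKM. The rest of the 15 lowest, PARM1, GALNT3, FAM198B, PLOD2, OLR1, KIT, SPNS2 and GDPD3, ran from 0.0352 FPKM (PLOD2) to 1.71 FPKM (OLR1) in RIP SW480 and from 21.3 FPKM (SPNS2) to 62.5 FPKM (OLR1) in RIP DLD-1. KIT, a receptor tyrosine kinase, had 0.150 and 24.6 FPKM, beside 18.6 and 0 FPKM in the Inputs.

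**Figure D3:**
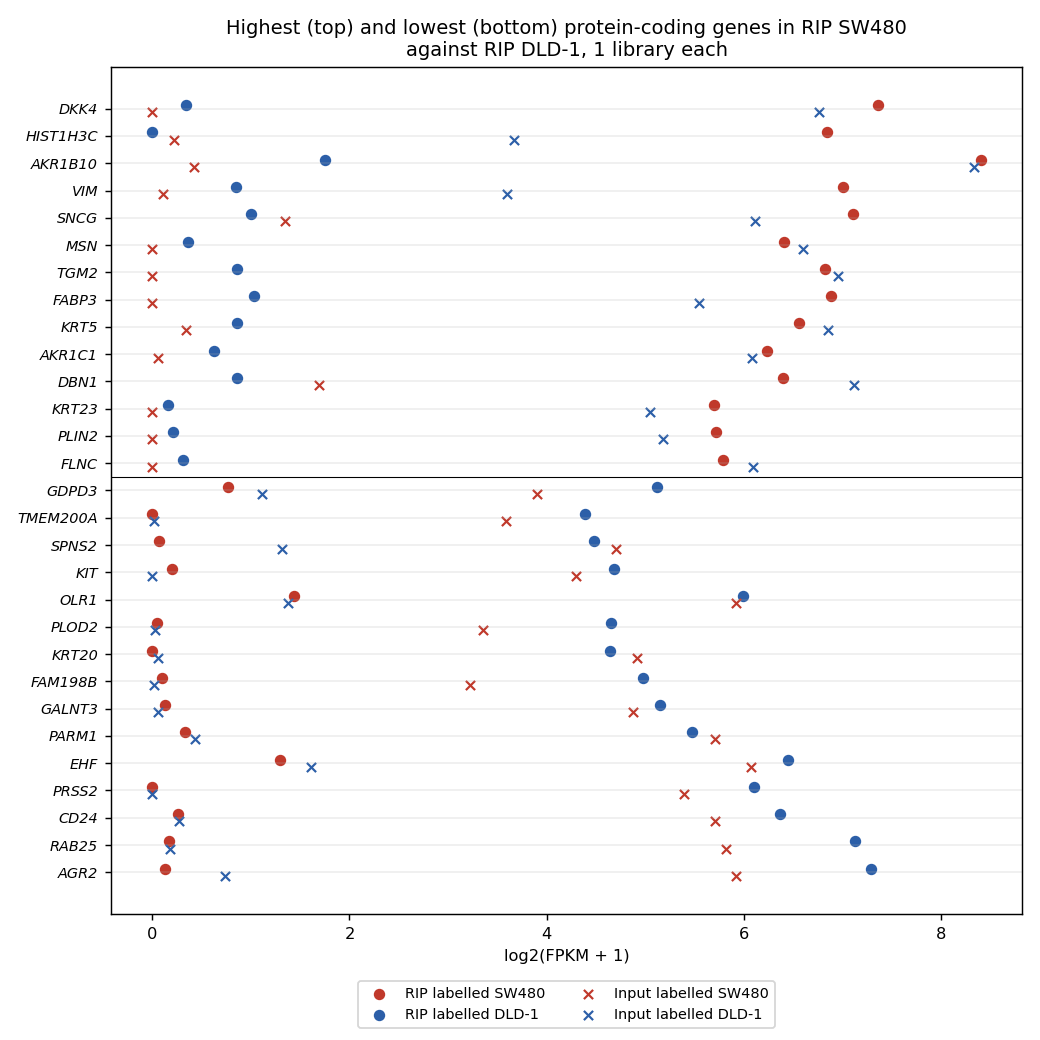
Level as log2(FPKM + 1) (horizontal axis) of protein-coding genes among the 15 highest and the 15 lowest in RIP SW480 against RIP DLD-1, in the 4 libraries (circles RIP, crosses Input, red labelled SW480, blue labelled DLD-1). In each of these genes the RIP circle and the Input cross that lie higher carry opposite labels.

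Among the highest non-coding members, TRBC2, a constant segment of the T cell receptor beta locus, had 42.3 and 0.628 FPKM in RIP SW480 and RIP DLD-1 and was 67.2-fold higher (38.3 to 131). CD8B2, AC125603.2, U62317.1 and AC005336.1 followed with 24.7 to 61.5 FPKM in RIP SW480 and 0.125 to 2.28 FPKM in RIP DLD-1. CD8B2 is annotated as a transcribed pseudogene that resembles CD8B, so its reads may be shared. The lowest were AC105460.1, AC005392.2, LINC02474, a U2 small nuclear RNA gene and AC136475.3. In RIP SW480 these were at 0 to 0.0882 FPKM, and in RIP DLD-1 at 15.6 to 43.7 FPKM.

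Gene lists were then read by their counts and medians. For lists of protein-coding genes, the share to set beside each count is 13.3% higher and 7.06% lower of all protein-coding members. The epithelial junction and surface list had 24 of 25 genes among the members, with 0 higher, 14 lower, a median RIP difference of -1.20 and a median Input difference of 1.10. Of the cadherins, CDH17 had 2.54 FPKM in RIP SW480 and 61.7 FPKM in RIP DLD-1, 24.3-fold lower (21.5 to 27.5). CDH1 (E-cadherin) had 89.5 and 180.4 FPKM, 2.01-fold lower (1.95 to 2.08), just past the 2-fold line. GRHL2, a transcription factor that keeps epithelial genes active, had 0.0129 and 16.4 FPKM (2 and 2168 reads). CLDN7, a tight junction claudin, had 31.1 and 115 FPKM. The adhesion molecule EPCAM had 95 and 306 FPKM, 3.22-fold lower (3.11 to 3.33). The 10 that did not pass 2-fold included OCLN, TJP1, CLDN3 and DSP, whose RIP differences were 0.10, 0.35, 0.35 and 0.60. In all 24 members, the RIP and Input differences had opposite signs.

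The mesenchymal list had 15 of 22 genes among the members, with 12 higher, 0 lower, and medians of 3.28 in RIP and -3.11 in Input. Beside VIM and MSN, the matrix genes COL6A1 (32.6 and 0.318 FPKM in RIP SW480 and RIP DLD-1) and SPARC (33.0 and 0.804 FPKM) and the receptor tyrosine kinase AXL (45.2 and 1.21 FPKM) were higher. The 3 between were TGFBI (37.6 and 48.7 FPKM), SNAI1 (6.21 and 5.82 FPKM) and TAGLN (1.41 and 0.361 FPKM). SNAI1, like ZEB1 a repressor of epithelial genes, was the member with the same sign in RIP (0.08) and Input (1.72). Not among the members were CDH2, TWIST1, ZEB2, MMP2, SNAI2, COL6A2 and LOX.

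ZEB1 and SNAI1 bind an E-box, CAGGTG, in promoters. These letters or their complement, CACCTG, stood in 7231 of 35116 RefSeq promoters of 300 bases (20.6%). They stood in 224 of 885 promoters (25.3%) of protein-coding members at least 2-fold lower in RIP SW480, in 352 of 1833 (19.2%) of those higher, and in 2031 of 11048 (18.4%) of those between. For the members at least 8-fold lower, it was 23 of 55 promoters (41.8%), against 46 of 211 (21.8%) for those at least 8-fold higher. Only 43 of 64 genes and 135 of 199 genes of these groups matched a promoter. For epithelial junction members it was 11 of 20 promoters, from 12 of the 24 genes that matched the table, and for mesenchymal members 4 of 22. A gene can have several promoters, which may overlap, and a match of letters is no sign of binding. The fold groups were formed from the RIP difference itself, and the lists were picked by gene role. What sets the shares apart was not tested. OCLN, TJP1 and DSP, epithelial members with RIP differences above 0, also carry it. To show the motif, 30-base windows upstream of the start are given, from genes chosen for lying lower in RIP SW480. They run 5′ to 3′ on the gene's strand (GRCh38.p14), with 1 E-box of each in capitals. The JUP window holds another, cacctg, in lower case. Of these, GRHL3, an epithelial transcription factor, had 0.165 and 14.1 FPKM in RIP SW480 and RIP DLD-1, ELF3, an epithelial ETS factor, 1.29 and 6.94 FPKM, and JUP (plakoglobin, of cell junctions) 33.1 and 106 FPKM. The windows lie at chr1:156061107-156061136 (RAB25, plus), chr1:24319324-24319353 (GRHL3, plus), chr1:202010455-202010484 (ELF3, plus), chr17:41786002-41786031 (JUP, minus) and chr12:6963155-6963184 (MIR200CHG, plus).
RAB25: catctctccaccCACCTGggccccaggtct
GRHL3: agttaacagctgCACCTGttgaggtatacc
ELF3: gaatatgcaaatCACCTGgggccaggagcc
JUP: ccacctgccgagCAGGTGagcgcacggagt
MIR200CHG: ggcaggaggacaCACCTGtgcgcagggtgg

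The intestinal lists lay on the epithelial side. Of the transcription factors, 14 of 19 were members, with 0 higher, 7 lower, and medians of -1.26 in RIP and 1.35 in Input. CDX2, which sets intestinal identity, had 4.31 FPKM in RIP SW480 and 28.3 FPKM in RIP DLD-1, 6.58-fold lower (5.99 to 7.24). SOX9, of crypt progenitors, had 51.4 and 241 FPKM, 4.68-fold lower (4.55 to 4.82), FOXA1 had 12.7 and 74.7 FPKM, and KLF5 25.4 and 115 FPKM. In contrast, HNF4A had a RIP difference of 0.45. Of the differentiation genes, 11 of 20 were members, with 1 higher, 8 lower, and medians of -2.55 and 2.12. The mucus genes TFF3 (0 and 16.6 FPKM) and MUC5AC (0.130 and 14.2 FPKM) and the adhesion molecule CEACAM5 (0.0822 and 6.34 FPKM) followed AGR2, and the exception was ALPI, an intestinal phosphatase, with 1.68 and 0 FPKM. Of 7 keratins of simple epithelium, 4 were lower and 1 higher: KRT20, KRT80 (15 and 36.6 FPKM), KRT19 (184 and 404 FPKM) and KRT8 (397 and 831 FPKM) against KRT23 (50.8 and 0.120 FPKM).

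**Figure D4:**
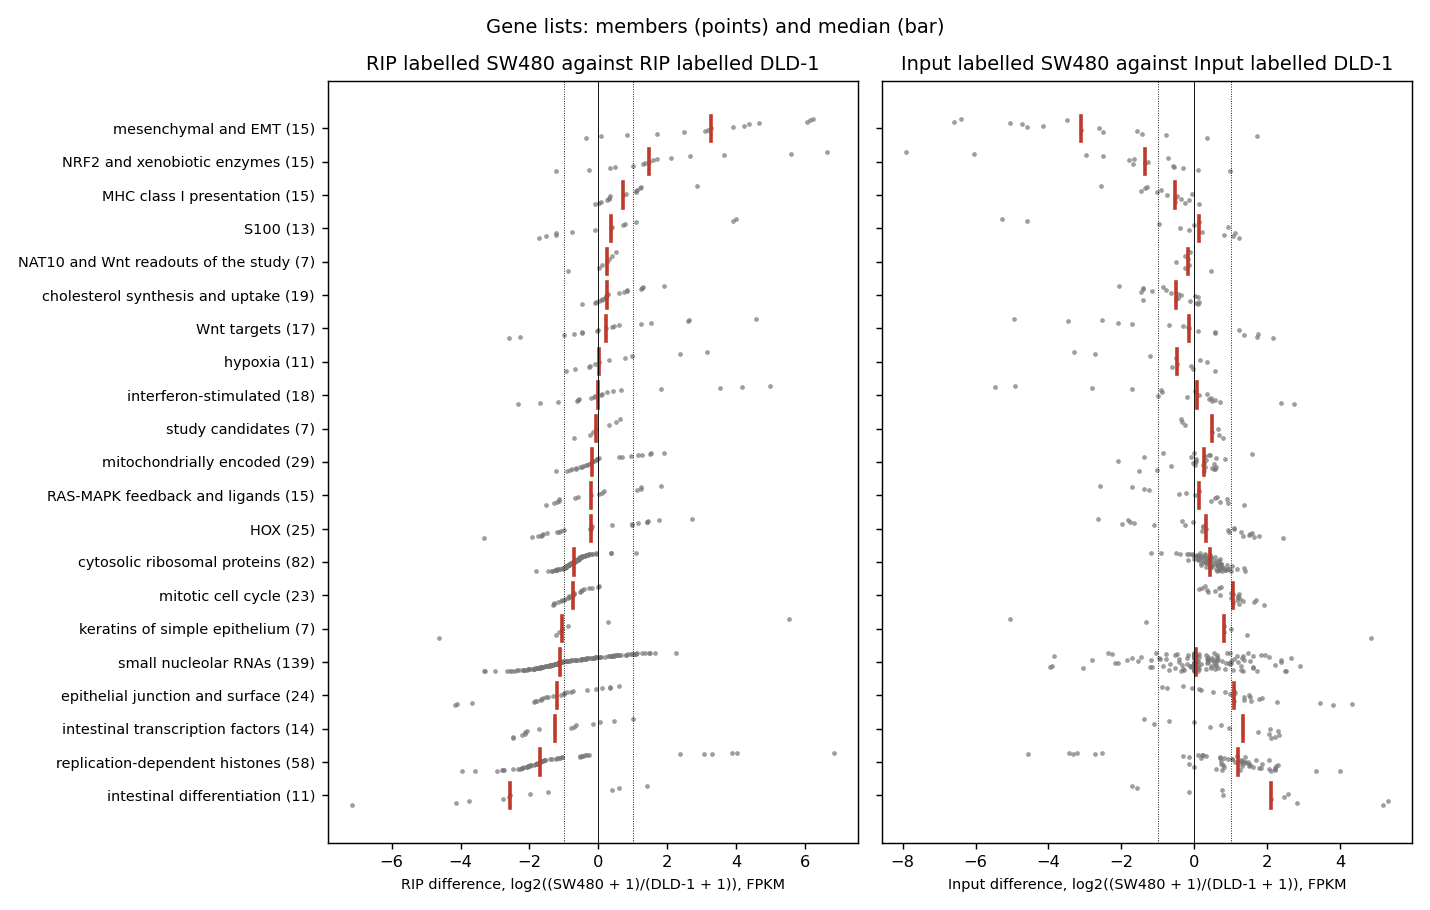
RIP difference (left) and Input difference (right) of the members of each gene list, as log2((SW480 + 1)/(DLD-1 + 1)) of FPKM, with points for genes, red bars for medians, dotted lines at 2-fold and the number of members in brackets. The intestinal differentiation list is lowest in RIP (-2.55) and at 2.12 in Input, the mesenchymal list highest in RIP (3.28) and at -3.11 in Input, while small nucleolar RNAs lie near 0 in Input and the S100 list is above 0 in both (0.38 and 0.13).

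Additionally, genes of the NRF2 response, which clear oxidants and carbonyls, stood higher in RIP SW480: 15 of 17 were members, with 11 higher, 1 lower, and medians of 1.48 in RIP and -1.35 in Input. After AKR1B10 and AKR1C1 came AKR1C2 (14.0 and 0.201 FPKM in RIP SW480 and RIP DLD-1) and the glutathione peroxidase GPX2 (12.2 and 1.09 FPKM), and the thioredoxin reductase TXNRD1 had 499 and 154 FPKM, 3.25-fold higher (3.19 to 3.30). AKR1C3 was the lower member, with 6.24 and 16.1 FPKM. AKR1C1, AKR1C2 and AKR1C3 are close paralogs whose reads may be split among them. The iron store FTL, the only gene that is not mitochondrial or 7SL among the 10 with the highest summed RIP level, had 9340.2 and 1745 FPKM and was 5.35-fold higher (5.30 to 5.41), beside 729.8 and 5165 FPKM in the Inputs. The letters TGACNNNGC belong to the antioxidant response element, to which NRF2 binds. They stood on either strand in 6 of 13 promoters from 10 matched genes of the list and in 13.3% of all promoters. The list was picked as genes of the NRF2 response, so a high share can follow from that choice. Its relation to the RIP difference was not tested. Over protein-coding members the share leaned little, with 15.4% for those at least 2-fold higher, 14.7% between and 13.3% at least 2-fold lower.

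Replication-dependent histone genes, whose mRNA ends in a stem loop and not in poly(A), were largely lower in RIP SW480. Of 71 genes, 58 were members, with 45 lower, 6 higher, and medians of -1.70 in RIP and 1.19 in Input. HIST1H3B had 169 and 1131 FPKM in RIP SW480 and RIP DLD-1, 6.71-fold lower (6.40 to 7.03), and the linker histone HIST1H1C 474 and 1264 FPKM, 2.66-fold lower (2.60 to 2.73). HIST1H2BH was lowest, with 2.98 and 60.6 FPKM. The 6 higher were HIST1H3C, HIST1H3G, HIST1H2BI, HIST1H2AE, HIST1H2BG and HIST1H2BB, with 0 to 9.52 FPKM in RIP DLD-1 and 6.91 to 114 FPKM in RIP SW480. These genes are near copies of each other, so reads may be assigned unevenly among them. Of 23 mitotic genes, 6 were lower and 0 higher, with medians of -0.74 and 1.06, beside 7.06% lower and 13.3% higher of all protein-coding members. ECT2, a cytokinesis exchange factor, had 27.7 and 70.2 FPKM, the kinase CDK1 27.8 and 69.3 FPKM, PRC1 of the spindle midzone 16.8 and 42.8 FPKM, and the topoisomerase TOP2A 53.2 and 121 FPKM.

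Of 87 cytosolic ribosomal protein genes, 82 were members, with 14 lower, 1 higher and a median of -0.71 beside 0.42 in Input. Of them RPS28 had 25.8 and 92.3 FPKM in RIP SW480 and RIP DLD-1, 3.58-fold lower (3.35 to 3.83), RPLP2 300.3 and 768 FPKM, RPS27 192 and 489 FPKM, and RPS26 24.8 and 69.8 FPKM. The higher one, RPS27L (8.09 and 3.29 FPKM), is a paralog of RPS27. Of 37 mitochondrially encoded genes, 29 were members, with 5 higher, 1 lower and a median of -0.20. The 8 mitochondrial mRNAs among the 10 genes with the highest summed RIP level, MT-CO1, MT-CO2, MT-CO3, MT-ND1, MT-ND2, MT-ND4, MT-ND5 and MT-CYB, had RIP differences from -0.77 (MT-CO3) to -0.03 (MT-ND1). The higher ones were 4 transfer RNAs and MT-ND6 (137 and 60.3 FPKM), the only protein gene on the light strand, and MT-TE had 41.6 and 10.4 FPKM with 85 and 18 reads. Of 139 small nucleolar RNA members by name, of 851 listed, 74 were lower and 11 higher, with medians of -1.10 and 0.06.

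Wnt target genes were split, with 5 higher and 3 lower of 17 members and a median of 0.23. Over all protein-coding members, the shares were 13.3% higher and 7.06% lower, and a departure of these small lists from them was not tested. The Wnt inhibitors APCDD1 (34.9 and 0.5003 FPKM in RIP SW480 and RIP DLD-1), NKD1 (10.9 and 0.912 FPKM) and NOTUM (13.6 and 1.41 FPKM) were higher, as DKK4 was. SOX4 (4.39 and 31.3 FPKM), the stem cell receptor LGR5 (0.161 and 4.61 FPKM) and AXIN2 (20.2 and 41.4 FPKM), a scaffold of the destruction complex, were lower. RAS-MAPK feedback genes were split as well, with 4 higher and 5 lower of 15. The phosphatase DUSP4 had 12.5 and 2.85 FPKM and DUSP6 38.1 and 85.8 FPKM, and the feedback inhibitors SPRY4 and SPRY1 had 22.7 and 9.03 FPKM and 1.92 and 7.35 FPKM. The ligand EREG had 86.4 and 212 FPKM.

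Of 15 genes of MHC class I presentation, 6 were higher and 0 lower, with medians of 0.72 in RIP and -0.53 in Input. HLA-B had 258 and 34.6 FPKM in RIP SW480 and RIP DLD-1, 7.47-fold higher (7.06 to 7.91), and B2M, the light chain, had 162 and 68.1 FPKM. HLA genes share reads with each other, and their alleles can differ from the reference. Interferon-stimulated genes did not move together: 4 of 18 were higher, among them BST2 (30.8 and 0 FPKM), IFITM1 (25.3 and 0.464 FPKM) and IFI27 (14.3 and 0.326 FPKM), and 3 lower, among them the antiviral sensors OAS3 (4.52 and 27.0 FPKM) and OAS1 (5.66 and 20.5 FPKM), with a median of -0.00. Beside 13.3% higher and 7.06% lower of all protein-coding members, the next lists lie near the background. Of 11 hypoxia members, NDRG1 (59.2 and 10.7 FPKM) and LOXL2 (9.51 and 0.179 FPKM) were higher and 0 lower, and VEGFA had 16.0 and 31.4 FPKM. Of 19 cholesterol genes, 4 were higher and 0 lower, among them LSS (22.0 and 8.46 FPKM), INSIG1 (59.7 and 24.2 FPKM) and DHCR7 (80.4 and 33.3 FPKM).

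The HOX genes, which record position along the body axis, went both ways. The counts of this list and the next stand beside 13.3% higher and 7.06% lower of all protein-coding members. Of 25 members of 39 genes, 10 were lower and 6 higher, and in all 25 the Input difference had the opposite sign. The 10 lower all belonged to the HOXA and HOXB clusters, with HOXA13 (1.63 and 25 FPKM in RIP SW480 and RIP DLD-1) and HOXB9 (63.8 and 204 FPKM) among them. The higher ones were HOXD8 (6.94 and 0.207 FPKM), HOXD9, HOXC8, HOXC9, HOXC10 (6.21 and 1.11 FPKM) and HOXB2. Of 13 members named S100, 3 were higher and 4 lower, and S100PBP among them is a binding protein, not a family member. The calcium-binding S100A4 (142 and 8.57 FPKM) and S100A3 (25.4 and 0.649 FPKM) were higher, and S100A14 (64.0 and 212 FPKM) and S100A10 (129 and 367 FPKM) lower. Of 79 genes taken by name as cancer-testis antigens, 78 stayed under 1 FPKM in both RIP libraries, and the remaining SSX2IP is not such an antigen.

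Of the genes that the study followed, 0 of 7 candidate targets passed 2-fold, beside 13.3% higher and 7.06% lower of all protein-coding members, which is too few genes to set apart from that share. KIF23, a kinesin of the central spindle, had 18.8 FPKM (2067 reads) in RIP SW480 and 31.2 FPKM (2917 reads) in RIP DLD-1, 1.66-fold lower (1.57 to 1.76), beside 34.3 and 19.6 FPKM in the Inputs. HNRNPH3 had 46.9 and 32.8 FPKM, MPP6 7.35 and 4.42 FPKM, UBA1 109 and 88.6 FPKM, NAP1L4 65.2 and 73.1 FPKM, POU2F1 5.70 and 6.06 FPKM, and HNRNPA2B1 61.5 and 73.3 FPKM. In all 7, the Input difference had the opposite sign to the RIP difference, but with the Inputs of the acRIP table HNRNPH3 had 0.14, the same sign as in RIP, and UBA1 -0.01.

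NAT10 and the Wnt readouts did not pass 2-fold either. The mRNA of NAT10 itself had 20.8 FPKM in RIP SW480 and 14.3 FPKM in RIP DLD-1, 1.45-fold higher (1.36 to 1.55), beside 21.2 and 23 FPKM in the Inputs. CTNNB1, which encodes beta-catenin, had 113 and 86.3 FPKM, CCND1 154 and 124 FPKM, MYC 161 and 159 FPKM, GSK3B 20.8 and 19.3 FPKM, and BCL2L1 148 and 124 FPKM. BIRC5 (survivin) was nearest to a call, with 11.2 and 21.6 FPKM, 1.92-fold lower (1.77 to 2.09). MYC changed sign when differences were centred on the protein-coding median.

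The RIP difference also varied by chromosome. Of the 23 chromosomes described, the protein-coding median was highest on chromosome 20 (0.43, n = 325), chromosome 7 (0.43, n = 535), the X chromosome (0.36, n = 362) and chromosome 13 (0.35, n = 197). It was lowest on chromosome 18 (-0.22, n = 150) and chromosome 4 (-0.15, n = 416). The Input medians ran opposite, at -0.42, -0.36, -0.30 and -0.28 for the first group and 0.20 and 0.24 for the others. On chromosome 20, 65 genes were at least 2-fold higher and 12 lower, while on chromosome 18 the counts were 13 and 20.

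**Figure D5:**
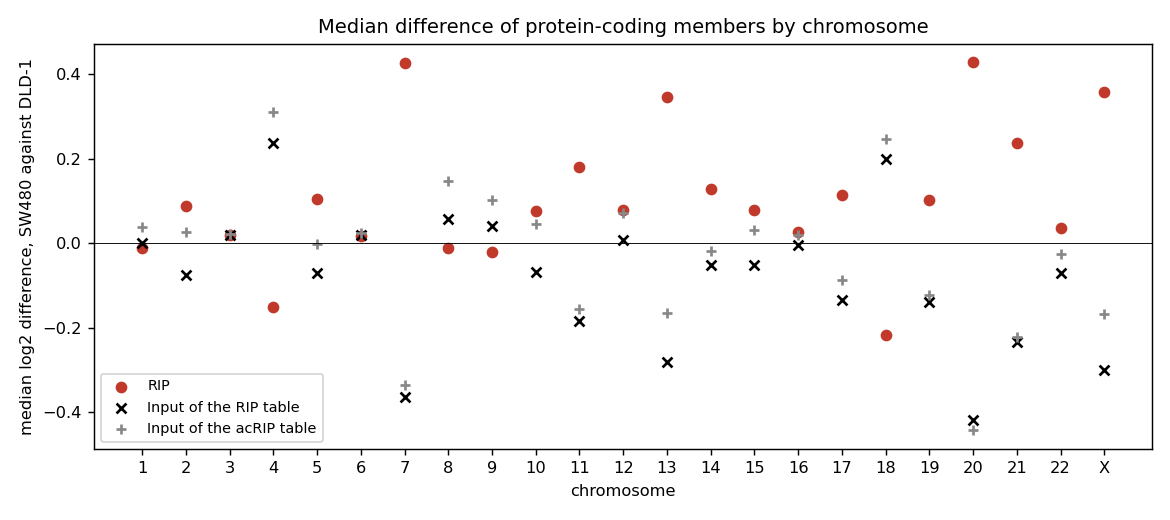
Median difference of protein-coding members by chromosome as log2((SW480 + 1)/(DLD-1 + 1)) of FPKM, for RIP (red circles) and for the Inputs of the RIP table (black crosses) and of the acRIP table (grey plus signs). Chromosomes 7, 13, 20 and X lie above 0 in RIP and below 0 in Input, and chromosomes 4 and 18 lie the other way round.

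Last, the RIP difference was set beside the ac4C peaks called in each acRIP library. Of all protein-coding members, 13.3% were at least 2-fold higher and 7.06% lower in RIP SW480. Of 1241 with a peak only in the acRIP library labelled SW480, 197 (15.9%) were higher and 58 (4.67%) lower in RIP SW480. Of 1815 with a peak only in that labelled DLD-1, 123 (6.78%) were higher and 120 (6.61%) lower, and of 4328 with peaks in both, 265 (6.12%) and 213 (4.92%). The 4547 members without a peak in either list had the most calls, 1000 higher (22.0%) and 451 lower (9.92%). Their median RIP and Input differences were 0.19 and -0.16, beside 0.21 and -0.18 for a peak only in the SW480 list. Peak calls depend on the level of a transcript, and the part this plays was not tested. VIM had 1 peak in the SW480 list and 0 in the DLD-1 list, CDH1 had 0 and 2, KIT 0 and 1, and MSN 4 in each.

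Finally, 37 members passed 2-fold upwards in both RIP and Input and 46 passed it downwards in both, and all were non-coding. Of all non-coding members, 14.0% were at least 2-fold higher and 18.1% lower in Input. Of those 37, 12 were microRNA loci, 6 antisense RNAs, 5 small nuclear RNAs and 5 processed pseudogenes. Of those 46, 9 were processed pseudogenes, 7 small nucleolar RNAs, 6 antisense RNAs and 6 miscellaneous small RNAs. The members named here were chosen after their values were seen. RPS26P6, a pseudogene of RPS26, had 12.7 and 39.6 FPKM in RIP SW480 and RIP DLD-1 and 9.44 and 22.4 FPKM in the Inputs. In the Inputs of the acRIP table RPS26P6 had 9.66 and 0 FPKM, which is the opposite direction. HOXA10-AS had 3.78 and 9.75 FPKM in RIP and 1.30 and 3.83 FPKM in the Inputs, and 5.71 and 8.22 FPKM in those of the acRIP table.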

How the data were processed

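Input, NAT10 RIP and acRIP libraries of SW480 and DLD-1 were grouped by their labels. The authors deposited gene values as FPKM, 1 column per library, and 1 ac4C peak list per acRIP library with a fold enrichment over Input, from which only the host genes were used. The acRIP table names no unit, and its Input columns were read as FPKM. The submitters' processing notes name cutadapt 2.5, HISAT2 2.1.0 and the builds GRCh38, hg38 and GRCm38. The gene counter, peak caller and strand setting are not given in the sources used here. Columns of the authors' own RIP/Input ratios and averages were not used.

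Differences were taken on log2(FPKM + 1), which understates changes of low genes, with 2-fold as the call. Whole reads were solved from the FPKM steps (23495 of 23515 genes within a tolerance of 0.01 reads). They are the smallest whole numbers that fit, so that counting intervals (95%, exact conditional binomial, Clopper-Pearson) are upper limits on counting error, and PCR copies are not independent molecules. The floor for a library at 0 was 3 reads. With 1 library per group no test was run. The method was tested on simulated data. Members and lists were chosen with earlier results of these data known.

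Genes were named by rule: the 15 highest and 15 lowest protein-coding and 5 highest and 5 lowest non-coding members with at least 10 FPKM in the higher RIP library, all genes the study followed, up to 4 extremes of each of 23 lists plus members described by role, the 10 most abundant, and the 10 with an Input difference nearest 0. Some genes that the rule names are not reported here. Python 3.11.15, numpy 2.4.6, pandas 2.3.3, scipy 1.17.1 and matplotlib 3.10.9 were used.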

Additional observations from a re-analysis of the deposited data

Results flagged for a closer look

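For 6 gene lists, the median RIP difference and the median Input difference of the same labels passed 2-fold in opposite directions. These differences were not tested, since each group is 1 library. The median RIP difference was -1.20 for the epithelial junction list, beside 1.10 in Input, and 3.28 for the mesenchymal list, beside -3.11. For the intestinal transcription factors it was -1.26 beside 1.35, and for the intestinal differentiation genes -2.55 beside 2.12. For the NRF2 list it was 1.48 beside -1.35, and for the replication-dependent histones -1.70 beside 1.19. With a pseudocount of 5 FPKM, the RIP medians of the epithelial junction list (-0.94) and the intestinal transcription factors (-0.996) fell short of 2-fold, and that of intestinal differentiation was -1.16.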

How the results depend on the processing

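With a pseudocount of 5 FPKM, 677 members were higher and 483 lower and the rank correlation of the RIP and Input differences was -0.74, and with 0.1 FPKM it was -0.68. Requiring 1 FPKM in both RIP libraries left 869 higher, 769 lower, a rank correlation of -0.73 and 76.1% of genes with opposite signs. Requiring 10 FPKM in either gave 726, 622, -0.84 and 82.1%. With no filter, the rank correlation was -0.57 and 59.0% had opposite signs. Protein-coding genes alone gave 842 lower, -0.82 and 79.98%, and the Inputs of the acRIP table -0.66 and 71.4%. Centring on the protein-coding median gave 76.8% with opposite signs. No result among these changed direction. Of the 23 list medians, those of cancer-testis antigens and hypoxia changed sign under centring, and that of the interferon list with a pseudocount of 0.1 FPKM and with libraries rescaled to equal protein-coding sums, which moved the median over all members to 0.15. Of the 9 list medians past 2-fold, 5 remained so with a pseudocount of 5 FPKM and 8 after rescaling. Of 154 named genes, MYC and SSX2IP changed sign under centring and MT-ND1 under rescaling. Of the 127 past 2-fold, 113 remained so with a pseudocount of 5 FPKM and 122 after rescaling. No replicate could be left out, and few reads limit the low library of the largest folds. No paired analysis was possible because each group has 1 library and no result comes from a test.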
